A study of Mus musculus with 9 samples.

Results

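The genes described here are 10 genes that serve protein folding in the endoplasmic reticulum (ER) and its stress response: Hspa5, Hsp90b1, Calr, Canx, Pdia3, Pdia4, Pdia6, Xbp1, Dnajb9 and Herpud1. They were taken by symbol from the 55367 gene symbols of each count table, and all 10 passed the filter on low counts that left 13707 genes for testing. The study asked what happens to the mRNA of adult mouse monocytes, blood cells of the innate immune system, when they are kept with platelets of different age. Monocytes were kept for 4 h with platelets of adult mice, with P7 platelets, or with control buffer alone, and were then washed before polyadenylated RNA was sequenced. P7 is the usual abbreviation for a postnatal age, and the P7 libraries are titled Neoplts. Each of the 3 groups had 3 libraries, 9 in all, and no other genotype, strain or treatment is given by the labels. Whether the libraries of a group came from separate animals or cultures is not stated in the labels, and the p-values therefore speak to the spread among these libraries, which may be technical.

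Secreted and membrane proteins are folded in the ER by chaperones, by lectins that hold sugar-bearing proteins, and by enzymes that form disulfide bonds. When unfolded proteins build up there, the sensors IRE1, PERK and ATF6 start the unfolded protein response, which raises transcription of chaperone and degradation genes and lowers translation in general. ATF6 and spliced XBP1 act in the nucleus on short promoter sequences, the best known of which is the ER stress response element. In the immune system this response is best known from plasma cells, where XBP1 supports antibody secretion, and XBP1 and IRE1 are also used by macrophages and dendritic cells.

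Promoter sequences of the 10 genes were read because several of these genes are textbook targets of ATF6 and XBP1. The windows came from RefSeq on GRCm38.p6 and ran from 250 bases before to 50 bases after the annotated start, 300 bases in all. The ER stress response element, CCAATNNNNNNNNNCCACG on either strand, was present in 5 of the 10 windows, those of Hspa5, Hsp90b1, Calr, Canx and Pdia6. It was present in the windows of 37 of 27025 genes, or 0.137%. Because known targets of ATF6 and XBP1 are among the 10, this contrast describes the sequences and carries no test. The matches are shown 5′ to 3′ on the strand of the gene, with the fixed letters of the element in capitals, because all 5 of these genes were higher with P7 platelets than in control:
Hspa5: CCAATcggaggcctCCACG
Hsp90b1 distal: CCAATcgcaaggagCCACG
Hsp90b1 proximal: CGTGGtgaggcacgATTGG
Calr: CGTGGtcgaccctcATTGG
Canx: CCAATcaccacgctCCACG
Pdia6: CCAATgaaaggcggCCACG
The Hspa5 match lay at -65 to -47 from the start, at chr2:34772025-34772043 on the plus strand. The matches of Hsp90b1 lay at -212 to -194 and at -107 to -89, and those of Calr, Canx and Pdia6 at -162 to -144, -145 to -127 and -98 to -80. Hsp90b1 and Calr carried the element in reverse orientation in the proximal and the single match shown.

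Herpud1 held the shorter form, ER stress response element II (ATTGGNCCACG, either strand), at -52 to -42, and a C/EBP-ATF composite site (TTGCATCA, either strand), the kind of site bound by ATF4 dimers, at -112 to -105. The shorter element occurred in the windows of 12 genes (0.0444%) and the composite site in those of 279 genes (1.03%). The core TGACGTGG, searched on both strands, was in none of the 10 windows and in those of 193 genes (0.714%). A CCAAT box, which both ER stress elements contain on one of the strands, was in 9 of the 10 windows and in those of 41.1% of all genes. A match to these letters is a description of the sequence and not a measured site of binding. The 250 bases upstream of Hspa5 (chr2:34771840-34772089, plus strand) and of Herpud1 (chr8:94386179-94386428, plus strand) are shown in full, with the matches in capitals, because Hspa5 differed most of the 10 genes and Herpud1 held both of the other motifs:
Hspa5: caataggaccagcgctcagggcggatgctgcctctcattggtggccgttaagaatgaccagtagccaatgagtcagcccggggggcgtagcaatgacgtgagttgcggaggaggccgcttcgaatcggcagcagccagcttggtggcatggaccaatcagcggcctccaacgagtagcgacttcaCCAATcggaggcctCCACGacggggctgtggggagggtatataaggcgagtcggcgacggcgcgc
Herpud1: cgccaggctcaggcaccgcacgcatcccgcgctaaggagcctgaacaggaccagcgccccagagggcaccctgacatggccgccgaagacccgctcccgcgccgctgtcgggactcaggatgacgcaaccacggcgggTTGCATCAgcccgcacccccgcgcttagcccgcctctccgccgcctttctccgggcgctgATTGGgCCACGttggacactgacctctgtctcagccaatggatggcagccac
GENCODE M21 begins Hspa5 further upstream, at chr2:34771970-34777547. From base 34771970 to its end at 34772089, the shown stretch therefore lies inside the gene as that annotation draws it. That part holds the ER stress response element (34772025-34772043). The element is upstream of the RefSeq start, from which its position was counted, but downstream of the GENCODE start. Herpud1 runs from 94386438 to 94395377 on chromosome 8 in the same annotation, outside the shown stretch.

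Total counts were between 30974956 and 34394579 per library with adult platelets, between 29687341 and 35333463 with P7 platelets, and between 35314701 and 37065564 in control. Levels are given as normalised CPM, read counts divided by library size after trimmed-mean (TMM) scaling. The 10 monocyte markers were all measured, and their summed level was 25274 to 29893 normalised CPM with adult platelets, 27900 to 32946 with P7 platelets and 23432 to 25047 in control. Lyz2 made up most of that sum, and the markers did not move together. At an adjusted p below 0.05 (edgeR), 7 were higher and 2 lower with P7 platelets than in control. With adult platelets 3 were higher and 2 lower. Csf1r averaged 3389 normalised CPM with P7 platelets and 2038 in control, whereas Ccr2 averaged 1747 and 2379. Transcripts of the added cells were still present: all 13 platelet markers were higher in both platelet groups than in control, with a summed level of 762 to 1353 normalised CPM with adult platelets, 1444 to 1659 with P7 platelets and 22.6 to 25.1 in control. The 5 erythroid markers took 0.0481% to 0.180% of the counts with adult platelets, 4.36% to 5.50% with P7 platelets and 0.000881% to 0.00117% in control. The 37 mitochondrially encoded genes took 2.05% to 2.28% of the counts with adult platelets, 2.33% to 2.42% with P7 platelets and 1.17% to 1.62% in control, the same order of groups as for Hspa5, and their part in the results was not tested. Whether RNA of platelets or red cells adds to the levels of the 10 genes was not tested; with platelet, erythroid and mitochondrially encoded transcripts removed before scaling, the log2 fold change of Hspa5 between P7 platelets and control was 1.08. In bulk RNA, fewer cells of a type and less RNA per cell cannot be told apart. TMM factors were 1.02 to 1.05 with adult platelets, 0.882 to 0.903 with P7 platelets and 1.07 to 1.10 in control, so the choice of scaling matters for small differences.

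With P7 platelets, 7 of the 10 genes rose relative to control: Hspa5, Calr, Herpud1, Pdia6, Canx, Pdia3 and Hsp90b1, by 2.11-fold for Hspa5 and 1.19-fold for Hsp90b1 at the ends of the range. None of the 10 was called lower, and Pdia4, Xbp1 and Dnajb9 did not pass the test. A gene was called when the quasi-likelihood test of edgeR gave it a p below 0.05 after Benjamini-Hochberg adjustment over all 13707 genes. Among all genes tested, 29.9% were called higher and 29.3% lower in the same comparison. With adult platelets, Hspa5 and Pdia6 were called higher than in control, 2 of 10 genes, beside 14.3% of all genes called higher and 12.0% called lower, so their share was close to the background. Set directly against P7 platelets, adult platelets gave lower levels of the same 7 genes that rose with P7 platelets, beside 19.7% of all genes called lower and 19.8% called higher. At an unadjusted p below 0.05, edgeR had 0 of the 10 genes lower in either comparison with control and 0 higher with adult than with P7 platelets. Xbp1 only just missed that cut as higher with adult than with P7 platelets (unadjusted p = 0.0501, edgeR). At an adjusted p below 0.05, DESeq2 called 0 in those directions too. Under other settings given below, Xbp1 and Pdia4 did pass in those directions. The first 2 comparisons share the control libraries, and each shares a platelet group with the third.

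**Figure D1:**
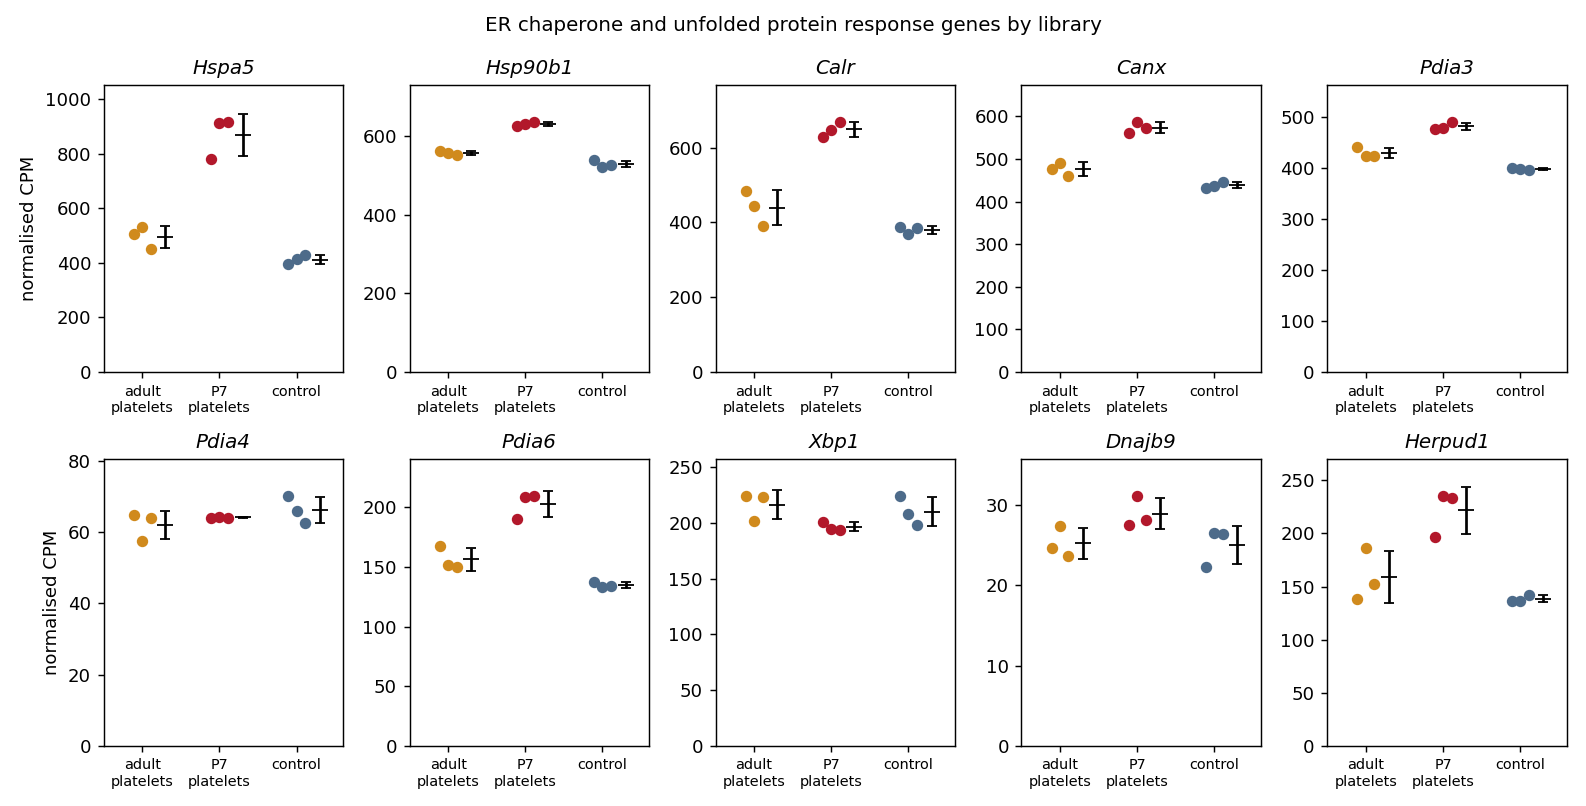
Normalised CPM of each of the 10 genes in every library, with a point per library and, beside the points, the mean ± SD of each group of 3 libraries (adult platelets, P7 platelets, control). The P7 points of Hspa5 sit between 779 and 914.5 normalised CPM, above all adult platelet and control points, while the points of Pdia4 overlap across the groups.

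The chaperones of the ER lumen come first. Hspa5 encodes BiP, the Hsp70-type chaperone that binds unfolded proteins and holds the stress sensors inactive. Its normalised CPM was 504, 530.3 and 450.4 in the adult platelet libraries, 779, 912 and 914.5 in the P7 platelet libraries, and 395, 413 and 427 in the control libraries. All 3 groups were separate, with every P7 library above every adult platelet library and every adult platelet library above every control library. The log2 fold change was 1.08 ± 0.083 (SE; adjusted p = 7.37e-06, edgeR) for P7 platelets against control, 0.27 ± 0.082 (adjusted p = 0.0407) for adult platelets against control, and -0.81 ± 0.082 (adjusted p = 0.000151) for adult against P7 platelets. Hspa5 made up 16.4% of the summed level of the 10 genes with adult platelets, 22.2% with P7 platelets and 15.1% in control.

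Hsp90b1 encodes GRP94, the Hsp90-type chaperone of the ER, which folds Toll-like receptors and integrins. It had 562, 557 and 551 normalised CPM with adult platelets, 625, 632 and 635 with P7 platelets, and 538, 522 and 526 in control. The groups did not overlap here either, but the spans were narrow. Hsp90b1 was 0.25 ± 0.042 higher on the log2 scale with P7 platelets than in control (adjusted p = 0.000676), and the adult platelet difference of 0.07 ± 0.042 did not pass (adjusted p = 0.230). The ratio of Hspa5 to Hsp90b1 CPM averaged 0.889 ± 0.068 with adult platelets, 1.38 ± 0.113 with P7 platelets and 0.779 ± 0.041 in control (SD, n = 3), so the pair did not move in proportion.

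Dnajb9 encodes ERdj4, a co-chaperone of BiP that binds IRE1, and was by far the least abundant of the 10. Its level was 24.6, 27.5 and 23.6 normalised CPM with adult platelets, 27.5, 31.1 and 28.2 with P7 platelets, and 22.4, 26.5 and 26.4 in control. Adult platelet and control libraries overlapped, and the P7 libraries lay above both by a small margin. The difference of 0.21 ± 0.087 between P7 platelets and control did not pass (adjusted p = 0.0652). It passed without adult platelet library 2 (adjusted p = 0.0445) and with the replicate number as a block (0.21, adjusted p = 0.0216).

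Calr and Canx encode calreticulin and calnexin, the lectin chaperones that hold newly made glycoproteins, in the lumen and in the ER membrane. Calr had 484, 445 and 389.9 normalised CPM with adult platelets, 629.8, 649 and 668 with P7 platelets, and 388, 369 and 386 in control. Canx had 478, 492 and 459 normalised CPM with adult platelets, 561, 586 and 573 with P7 platelets, and 433, 437 and 446 in control. For both genes the P7 libraries stood clear of the rest, and each adult platelet library lay above each control library, by a narrow margin for Calr. Calr rose by 0.77 ± 0.075 and Canx by 0.39 ± 0.047 on the log2 scale with P7 platelets against control (adjusted p = 2.81e-05 and 9.94e-05). With adult platelets the differences from control were 0.21 ± 0.075 for Calr (adjusted p = 0.0705) and 0.12 ± 0.047 for Canx (adjusted p = 0.0933). Without adult platelet library 3, whose Calr level was the lowest of its group, the Calr difference passed at 0.29 (adjusted p = 0.00957).

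The 3 protein disulfide isomerases differed among themselves. Pdia6, which encodes P5, an isomerase that works with BiP, had 167, 152 and 149.9 normalised CPM with adult platelets, 190.4, 209 and 209 with P7 platelets, and 137, 133 and 134 in control. Its groups were separate in all 3 comparisons, and it rose by 0.59 ± 0.060 with P7 platelets (adjusted p = 3.31e-05) and by 0.21 ± 0.059 with adult platelets (adjusted p = 0.0283) on the log2 scale. Pdia3 encodes ERp57, the isomerase that joins calreticulin and calnexin and takes part in loading MHC class I molecules. It had 439.6, 423 and 422 normalised CPM with adult platelets, 476, 477 and 489 with P7 platelets, and 400.1, 396 and 396 in control. The spread within each group was small, and the difference of 0.27 ± 0.043 between P7 platelets and control passed (adjusted p = 0.000491), while that of 0.11 ± 0.043 between adult platelets and control did not (adjusted p = 0.0965).

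Pdia4 encodes ERp72, an isomerase usually counted among the targets of the unfolded protein response. Its levels were 64.7, 57.6 and 64.0 normalised CPM with adult platelets, 64.0, 64.4 and 64.1 with P7 platelets, and 70.1, 65.9 and 62.7 in control. The P7 libraries lay within the span of the control libraries. The log2 fold change was -0.05 ± 0.060 for P7 platelets against control (adjusted p = 0.528) and -0.09 ± 0.059 for adult platelets against control (adjusted p = 0.282).

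Herpud1 encodes HERP, a membrane protein of ER-associated degradation, which returns misfolded proteins to the cytosol. Its levels were 138, 186 and 152 normalised CPM with adult platelets, 196, 235 and 234 with P7 platelets, and 137, 136 and 142 in control. All P7 libraries were highest, whereas adult platelet library 1 lay inside the control span. Herpud1 rose by 0.68 ± 0.109 on the log2 scale with P7 platelets (adjusted p = 0.000536), and its adult platelet difference of 0.20 ± 0.109 did not pass (adjusted p = 0.207). Adult platelet levels were 0.48 ± 0.109 lower than P7 levels on the same scale (adjusted p = 0.00700).

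**Figure D2:**
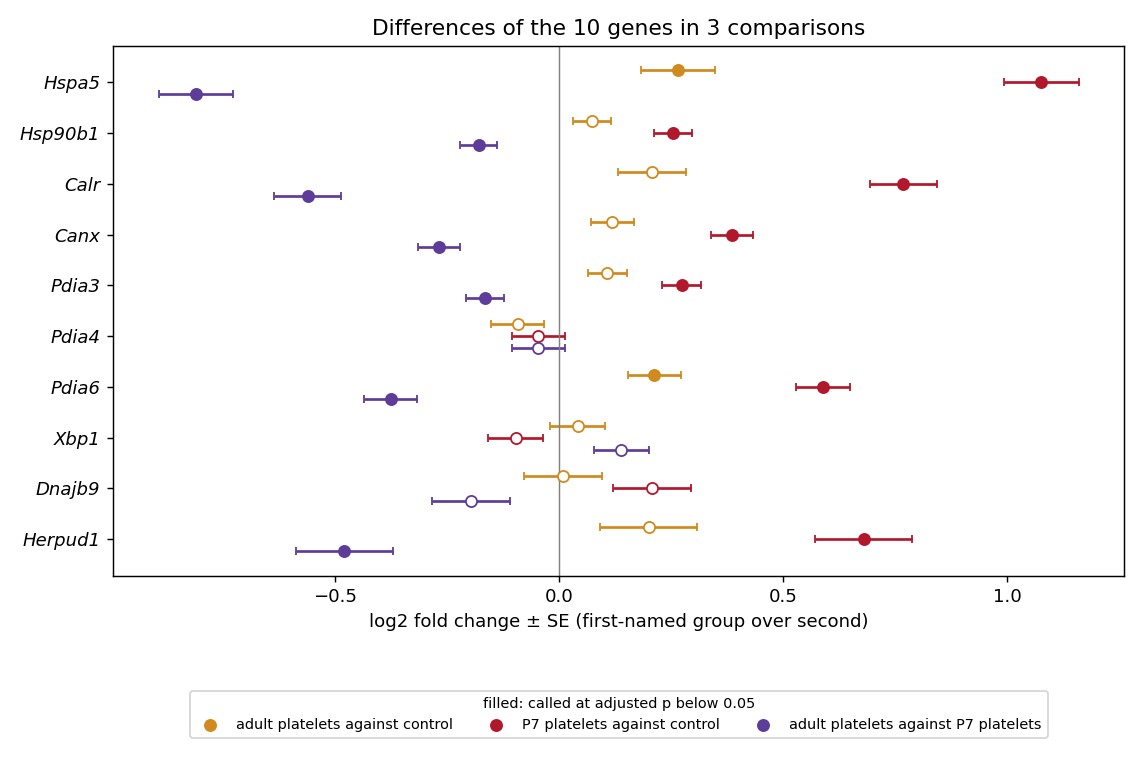
Log2 fold change of each of the 10 genes with its SE in 3 comparisons (adult platelets against control, P7 platelets against control, adult against P7 platelets); filled points passed an adjusted p of 0.05. The P7 fold changes of the 10 genes run from -0.10 for Xbp1 to 1.08 for Hspa5.

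Xbp1 encodes the transcription factor whose mRNA is spliced by IRE1. Counts per gene do not separate the spliced from the unspliced form, so they give the amount of Xbp1 mRNA and not its splicing. Its levels were 224, 202 and 223 normalised CPM with adult platelets, 201, 195 and 193 with P7 platelets, and 224, 208 and 199 in control. The P7 libraries overlapped with control and lay just below each adult platelet library. The log2 fold change was -0.10 ± 0.062 for P7 platelets against control (adjusted p = 0.203) and 0.04 ± 0.062 for adult platelets against control (adjusted p = 0.660). Under upper-quartile scaling it passed as lower with P7 platelets, at -0.20 (adjusted p = 0.0268). The ratio of Herpud1 to Xbp1 CPM averaged 0.741 ± 0.162 with adult platelets, 1.13 ± 0.133 with P7 platelets and 0.660 ± 0.053 in control.

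Immunoglobulin transcripts differed between libraries of the same group, and Xbp1 differed with them. Igkc, the kappa light chain constant gene of B and plasma cells, had 744, 121 and 389 normalised CPM with adult platelets, 671, 192 and 153 with P7 platelets, and 608, 121 and 138 in control. In each group the libraries with the most Igkc (adult platelet 1 and 3, P7 platelet 1, control 1) also had the most Xbp1. Of the 12 B and plasma cell markers, 9 were measured, and their summed level was 295 to 1146 normalised CPM with adult platelets, 371 to 1066 with P7 platelets and 353 to 1042 in control; none was at 0 in all libraries. Jchain, which joins antibody chains, followed Igkc, with 166, 27.7 and 85.8 normalised CPM with adult platelets, 161, 38.9 and 33.8 with P7 platelets, and 143, 26.1 and 28.5 in control. Mzb1, an ER protein of antibody-secreting cells, reached 0.301 normalised CPM at most and was also highest in the Igkc-rich libraries of each group. With log2 Igkc as a term in the fit, Xbp1 passed as lower with P7 platelets than in control, by a log2 difference of -0.11 (adjusted p = 0.0384), and Dnajb9 passed as higher, at 0.23 (adjusted p = 0.00887). With the same term, Hspa5 was 1.09 higher with P7 platelets on the log2 scale, close to its value without it. The part of B-lineage RNA in the Xbp1 level was not tested beyond this.

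**Figure D3:**
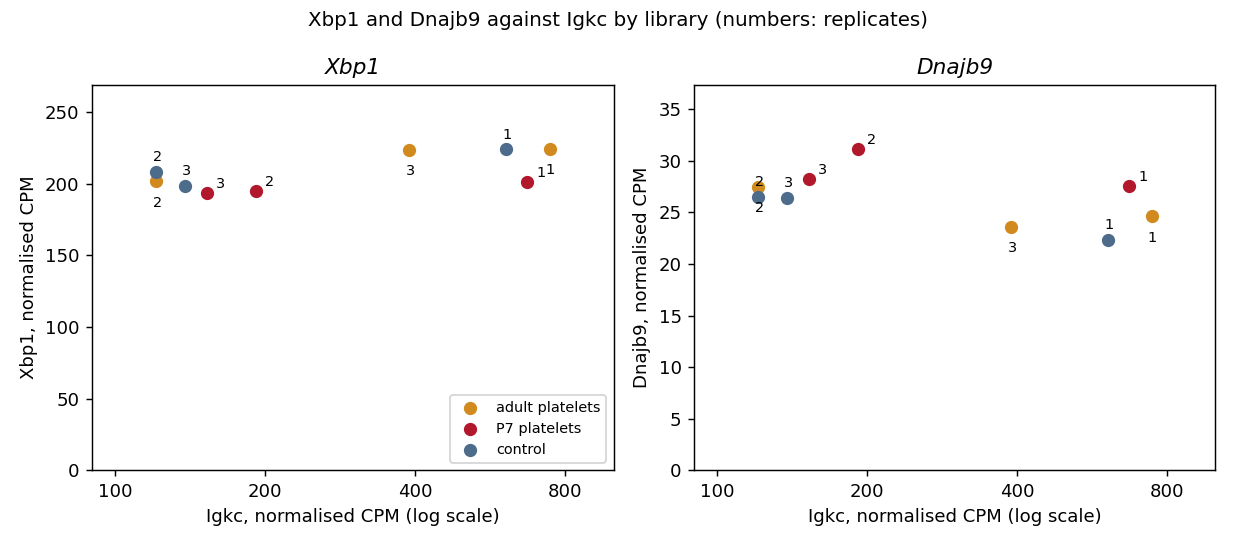
Normalised CPM of Xbp1 and Dnajb9 against that of Igkc (log axis) in the 9 libraries, numbered by replicate and coloured by group (adult platelets, P7 platelets, control). The libraries high in Igkc (adult platelet 1 at 744 and 3 at 389, P7 platelet 1 at 671, control 1 at 608) have more Xbp1 and less Dnajb9 than the others of their group.

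Set directly against each other, adult platelets gave lower levels than P7 platelets not only of Hspa5 and Herpud1. Calr was lower by a log2 difference of -0.56 ± 0.075 (adjusted p = 0.000544), Pdia6 by -0.38 ± 0.059 (adjusted p = 0.00118) and Canx by -0.27 ± 0.047 (adjusted p = 0.00199). The Canx call was lost with library totals alone (-0.0547, adjusted p = 0.307). Hsp90b1 and Pdia3 had the smallest differences that passed, -0.18 ± 0.042 (adjusted p = 0.00833) and -0.17 ± 0.043 (adjusted p = 0.0137), and both calls were lost with upper-quartile scaling (adjusted p = 0.0690 and 0.113) and without the filter on low counts (0.104 and 0.141). Pdia3 also lost its call without P7 library 3 (adjusted p = 0.0593) and when the control libraries were kept out of the fit (0.0575). Dnajb9 (-0.20 ± 0.087, adjusted p = 0.101), Xbp1 (0.14 ± 0.062, adjusted p = 0.104) and Pdia4 (-0.05 ± 0.060, adjusted p = 0.580) did not pass, though Dnajb9 and Xbp1 passed without adult platelet library 2 (adjusted p = 0.0457 and 0.0394). Both also passed with log2 Igkc as a term (adjusted p = 0.0429 and 0.0370), and Dnajb9 with the replicate block (0.0374). Xbp1 further passed with upper-quartile scaling (0.21, adjusted p = 0.0301) and library totals alone (0.35, adjusted p = 0.00304). In each of these settings Xbp1 was higher with adult platelets, opposite to the chaperones.

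Per kilobase of exon, the order of the 10 genes changed with P7 platelets. Mean levels in control ran from Calr (132 normalised CPM per kb), Hsp90b1 (131) and Pdia3 (127) through Hspa5 (97.3) and Canx (93.4) to Xbp1 (64.7), Herpud1 (59.3), Pdia6 (36.0), Pdia4 (27.6) and Dnajb9 (9.84). Calr and Hsp90b1 overlapped between libraries, as did Hspa5 and Canx. With P7 platelets the order was Calr (225 normalised CPM per kb), Hspa5 (205), Hsp90b1 (156), Pdia3 (153), Canx (122), Herpud1 (95.0), Xbp1 (60.5), Pdia6 (54.2), Pdia4 (26.7) and Dnajb9 (11.4). There Hspa5 stood above Hsp90b1 and Pdia3, which overlapped with each other, and Herpud1 stood above Xbp1. With adult platelets the order was Calr (153 normalised CPM per kb), Hsp90b1 (138), Pdia3 (136), Hspa5 (117), Canx (101), Herpud1 (68.1), Xbp1 (66.6), Pdia6 (41.7), Pdia4 (25.9) and Dnajb9 (9.90). Here Calr, Hsp90b1 and Pdia3 overlapped with their neighbours in the order, as did Herpud1 and Xbp1. Lengths came from GENCODE M21, and the annotated genes that overlap the 10 had few counts, as did the pseudogene Calr-ps with 0 to 2 counts per library.

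Summed over the 10 genes, normalised CPM averaged 3015 ± 111 with adult platelets, 3916 ± 144 with P7 platelets and 2732 ± 21.7 in control (SD, n = 3). The sums did not overlap between groups. Without Hspa5 the sums were 2519.8 ± 75.1 with adult platelets, 3048 ± 66.2 with P7 platelets and 2320.5 ± 27.8 in control, so the order of the groups did not rest on that gene. As a share of all raw counts the 10 genes took 0.304% to 0.320% with adult platelets, 0.339% to 0.357% with P7 platelets and 0.292% to 0.302% in control.

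The median log2 fold change of the 10 genes was 0.33 for P7 platelets against control, beside -0.01 over all genes tested. It was 0.11 for adult platelets against control, beside -0.0022 over all genes, and -0.23 for adult against P7 platelets, beside 0.02. In size, regardless of sign, the median P7 difference of the 10 genes (0.33) was close to that of all genes (0.37), since 59.2% of all genes were called in that comparison. The groups did not overlap for 8 of the 10 genes between P7 platelets and control, beside 69.1% of all genes, and for 6 of 10 between adult platelets and control, beside 42.7%. Between adult and P7 platelets they did not overlap for 9 of 10, beside 49.0%.

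Scaling moved the small differences. When libraries were scaled by their totals alone, the median of all genes shifted to -0.29 for P7 platelets against control, and the calls over all genes were 2193 higher and 6846 lower, against 4097 higher and 4014 lower with TMM. Hspa5, Calr, Canx, Pdia6 and Herpud1 were still called higher with P7 platelets under that scaling, with log2 fold changes of 0.80, 0.49, 0.11, 0.31 and 0.40. Pdia3 and Hsp90b1 were not, at -0.0036 and -0.02, which is 0.29 and 0.27 above the median of all genes, and Xbp1 and Pdia4 were called lower, at -0.37 and -0.32. The adult platelet calls were less stable: neither Hspa5 nor Pdia6 passed with upper-quartile scaling (adjusted p = 0.0507 and 0.0503) or library totals (0.0658 and 0.0949). The Hspa5 call was lost without adult platelet library 1 or 2, P7 library 2 or 3, or any control library, with an adjusted p of 0.0534 to 0.113, and the Pdia6 call without adult platelet library 1 or any control library, with an adjusted p of 0.0532 to 0.100.

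Of the 3 sensors, Ern1 and Eif2ak3 were lower with P7 platelets than in control and Atf6 did not pass. Ern1, which encodes IRE1, had 159, 192 and 207 normalised CPM with adult platelets, 121, 127 and 126 with P7 platelets, and 193, 217 and 214 in control. The P7 libraries were all below the others, and Ern1 fell by 0.74 on the log2 scale against control (SE 0.091, adjusted p = 0.000108), while the adult platelet difference of -0.16 ± 0.091 did not pass (adjusted p = 0.223). Eif2ak3, which encodes PERK, had 62.2, 53.6 and 57.5 normalised CPM with adult platelets, 47.0, 39.6 and 40.7 with P7 platelets, and 73.3, 78.7 and 75.9 in control. Its 3 groups were separate, and it fell with both kinds of platelets: the log2 fold change was -0.40 ± 0.077 with adult platelets (adjusted p = 0.00578) and -0.84 ± 0.078 with P7 platelets (adjusted p = 2.06e-05).

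Atf6, the membrane-bound transcription factor, averaged 176 ± 8.88 normalised CPM with adult platelets, 204 ± 15.0 with P7 platelets and 192 ± 6.59 in control, and did not pass against control in either comparison (adjusted p = 0.177 with adult platelets, 0.275 with P7 platelets). With library totals alone Atf6 was called lower in both, at -0.19 in each. Of the 6 sensors and their proteases, 1 was higher (Atf6b) and 3 lower (Ern1, Eif2ak3 and Mbtps1, the site-1 protease that cuts ATF6) with P7 platelets against control, beside 29.9% of all genes higher and 29.3% lower. With adult platelets 0 were higher and 1 was lower, beside 14.3% and 12.0% of all genes. Against P7 platelets, adult platelets gave lower Atf6 (-0.22 ± 0.065, adjusted p = 0.0258) and Atf6b (-0.22 ± 0.069, adjusted p = 0.0316), the direction of the chaperones, and higher Ern1 (0.58 ± 0.091, adjusted p = 0.00117), Eif2ak3 (0.44 ± 0.078, adjusted p = 0.00197) and Mbtps1 (0.13 ± 0.039, adjusted p = 0.0263). The Atf6b call for P7 platelets against control was lost with upper-quartile scaling (adjusted p = 0.0664), and its difference turned to -0.01 with library totals. Between adult and P7 platelets, Atf6 and Atf6b lost their calls with upper-quartile scaling (adjusted p = 0.0907 and 0.121) and library totals (0.966 and 0.948). Both calls were also lost without the filter on low counts (0.0556 and 0.0630) and with the compared groups alone (0.0594 and 0.0709). Mbtps1 lost its call in these last settings too (0.114 and 0.0748).

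**Figure D4:**
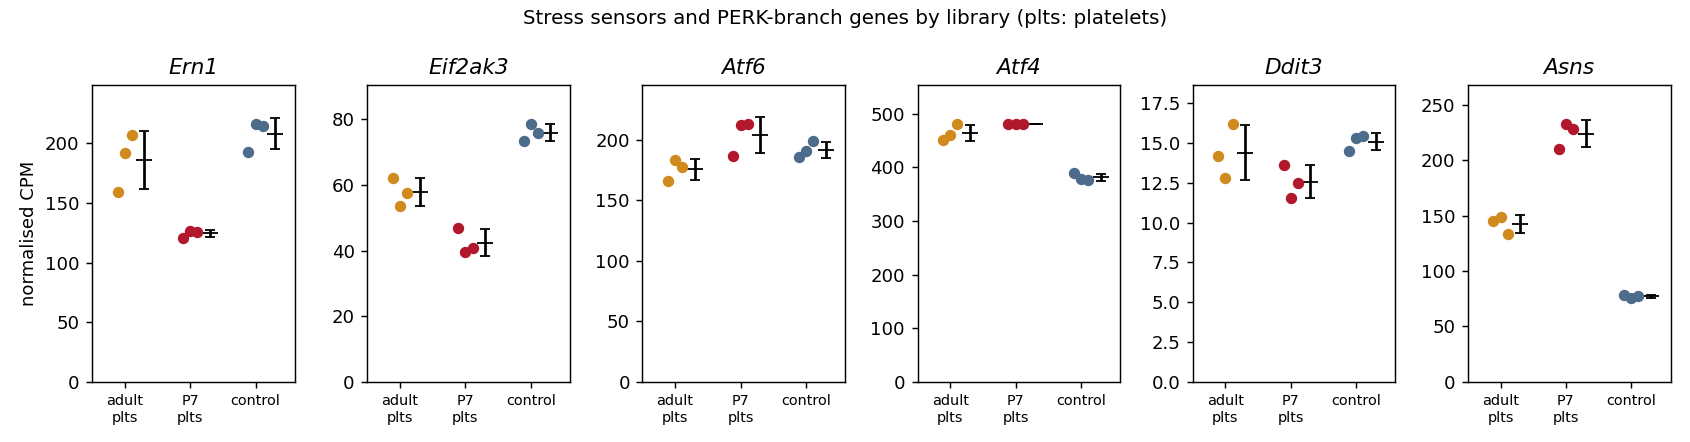
Normalised CPM of Ern1, Eif2ak3, Atf6, Atf4, Ddit3 and Asns in every library, with a point per library and the mean ± SD of each group beside the points (adult platelets, P7 platelets, control). Asns is highest with P7 platelets, between 209.9 and 233 normalised CPM, whereas Ern1 and Eif2ak3 are lowest there.

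Downstream of PERK, Atf4, the transcription factor of the integrated stress response, had 452, 459.8 and 481 normalised CPM with adult platelets, 482, 482 and 481 with P7 platelets, and 389, 378 and 377 in control. Both platelet groups lay above control, by 0.28 ± 0.045 with adult platelets (adjusted p = 0.00224) and by 0.34 ± 0.045 with P7 platelets (adjusted p = 0.000183) on the log2 scale; the P7 call was lost with library totals (0.06, adjusted p = 0.336). Asns, the asparagine synthetase gene and a target of ATF4, had 145, 149 and 134 normalised CPM with adult platelets, 209.9, 233 and 228 with P7 platelets, and 78.3, 75.8 and 77.3 in control. The groups were far apart, with log2 fold changes of 0.88 ± 0.058 for adult platelets (adjusted p = 1.59e-05) and 1.54 ± 0.059 for P7 platelets (adjusted p = 3.47e-07) against control. Ddit3 encodes CHOP, a factor tied to cell death under lasting ER stress. It averaged 14.4 ± 1.71 normalised CPM with adult platelets, 12.6 ± 1.04 with P7 platelets and 15.1 ± 0.514 in control. Ddit3 was called lower with P7 platelets at -0.26 ± 0.095 (adjusted p = 0.0373), but not without P7 library 2 or 3 or any control library (adjusted p = 0.0513 to 0.130) nor by DESeq2 (0.0519).

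The PERK-ATF4 and integrated stress response list, which holds Atf4, Asns and Ddit3, had mostly higher calls: of 15 genes measured, 13 were higher and 1 lower with P7 platelets (29.9% and 29.3% of all genes), and 7 were higher and 0 lower with adult platelets (14.3% and 12.0% of all genes). Ddit4, an inhibitor of mTOR signalling, averaged 16.4 ± 1.13 normalised CPM with adult platelets, 25.1 ± 0.520 with P7 platelets and 9.04 ± 0.186 in control. Ppp1r15a, which encodes the phosphatase subunit GADD34 that restores translation, averaged 35.5 ± 2.03 normalised CPM with adult platelets, 70.5 ± 4.73 with P7 platelets and 34.2 ± 2.87 in control. Ddit4 was thus higher in both platelet groups (log2 fold changes 0.86 ± 0.063 with adult and 1.47 ± 0.063 with P7 platelets), while Ppp1r15a passed with P7 platelets (1.04 ± 0.077, adjusted p = 5.77e-06) and not with adult platelets (0.05 ± 0.077, adjusted p = 0.655). The list's median log2 fold change was 0.27 with adult platelets and 0.61 with P7 platelets, beside -0.0022 and -0.01 over all genes.

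Among 20 other ER chaperones and folding enzymes, 9 were higher and 5 lower with P7 platelets, beside 29.9% and 29.3% of all genes. With adult platelets 3 were higher and 2 lower, close to the 14.3% and 12.0% of all genes, and the list's median log2 fold change was 0.06 with adult and 0.11 with P7 platelets. The higher ones included Ero1l, the oxidase that recharges disulfide isomerases, at 116 ± 9.69 normalised CPM with adult platelets, 163 ± 5.004 with P7 platelets and 89.7 ± 0.503 in control. Dnajb11, a BiP co-chaperone, averaged 150.5 ± 5.60 normalised CPM with adult platelets, 201 ± 9.31 with P7 platelets and 131 ± 3.45 in control, and Manf, a secreted ER stress protein, averaged 51.5 ± 4.33, 67.5 ± 2.28 and 42.9 ± 0.662 in the same groups. All 3 rose with P7 platelets, by 0.86 ± 0.062, 0.61 ± 0.052 and 0.65 ± 0.062 on the log2 scale. The lower ones included Erp29, an ER folding factor, at 192 ± 9.92 normalised CPM with adult platelets, 148 ± 0.931 with P7 platelets and 232 ± 8.88 in control. Txndc5, a disulfide isomerase family member, and Ero1lb, the second ER oxidase, were also lower with P7 platelets, by log2 fold changes of -0.37 ± 0.051 and -0.51 ± 0.084.

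Of 17 other genes of ER-associated degradation, 11 were higher and 2 lower with P7 platelets (29.9% and 29.3% of all genes), and 5 were higher and 1 lower with adult platelets (14.3% and 12.0% of all genes). The list's median log2 fold change was 0.14 with adult and 0.30 with P7 platelets. Derl1, part of the channel for misfolded proteins, averaged 161 ± 2.42 normalised CPM with adult platelets, 177 ± 0.478 with P7 platelets and 133 ± 2.81 in control. Selenos, a partner of that channel, averaged 54.3 ± 6.29 normalised CPM with adult platelets, 75.6 ± 2.68 with P7 platelets and 47.9 ± 1.64 in control. Derl1 rose by 0.41 ± 0.040 and Selenos by 0.66 ± 0.079 on the log2 scale with P7 platelets against control. Edem3, a mannosidase that marks glycoproteins for degradation, was lower, at 88.8 ± 8.04 normalised CPM with adult platelets, 83.2 ± 1.09 with P7 platelets and 107 ± 3.57 in control. Edem2, of the same family, was the other gene called lower with P7 platelets, a call that was lost without any P7 library or without control library 1 or 3 (adjusted p = 0.0546 to 0.0903).

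For ER translocation and secretory transport, 17 of 19 measured genes were higher and 1 lower with P7 platelets (29.9% and 29.3% of all genes), and 8 were higher and 0 lower with adult platelets (14.3% and 12.0% of all genes). The list's median log2 fold change was 0.16 with adult and 0.29 with P7 platelets. Sec24d and Sec23b, subunits of the vesicle coat that leaves the ER, had log2 fold changes of 0.93 ± 0.087 and 0.63 ± 0.057 with P7 platelets against control. Srpr, a subunit of the signal recognition particle receptor, rose by 0.56 ± 0.049, and Kdelr1, the receptor that returns ER proteins from the Golgi, was the gene called lower, at -0.20 ± 0.048. Of 15 cytosolic and mitochondrial heat shock genes, 9 were higher and 1 lower with P7 platelets (29.9% and 29.3% of all genes), and 4 were higher and 1 lower with adult platelets (14.3% and 12.0% of all genes). The median log2 fold change of these chaperones outside the ER was 0.06 with adult and 0.31 with P7 platelets. Hsp90aa1, the inducible cytosolic Hsp90, and the mitochondrial chaperone genes Hspa9 and Hspd1 rose by 0.87 ± 0.056, 0.66 ± 0.060 and 0.44 ± 0.044 on the log2 scale with P7 platelets. The gene called lower was Hspa8, at -0.17 with P7 and -0.19 with adult platelets against control (adjusted p = 0.0140 and 0.0210). It was far more abundant, averaging 1078 normalised CPM with adult platelets, 1091.5 with P7 platelets and 1228 in control. Both Hspa8 calls were lost in some settings, such as without the filter on low counts (adjusted p = 0.0653 and 0.114).

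**Figure D5:**
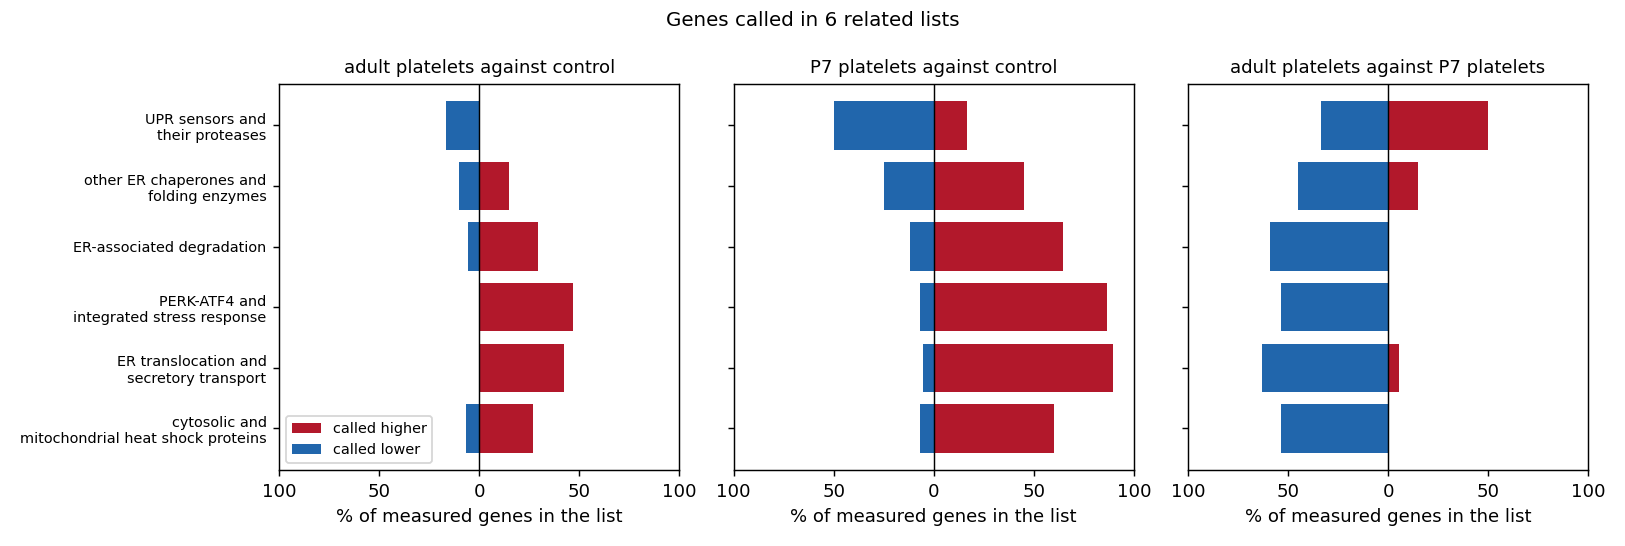
Percentage of the measured genes called higher (right of 0) and lower (left of 0) in each of 6 related gene lists, for adult platelets against control, P7 platelets against control, and adult against P7 platelets. With P7 platelets, translocation and secretory transport has 17 genes higher and 1 lower, and the sensors have 1 higher and 3 lower.

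Scaling by library totals changed these counts for P7 platelets against control to 4 higher and 5 lower for degradation, 7 and 3 for translocation and transport, 7 and 10 for the other chaperones, 8 and 2 for the PERK-ATF4 list, 6 and 5 for heat shock genes, and 0 and 5 for the sensors. Over all 13707 genes tested, that scaling gave 2193 called higher and 6846 called lower. Set against P7 platelets, adult platelets gave 0 higher and 10 lower genes in the degradation list, 0 and 8 in the PERK-ATF4 list, 1 and 12 in translocation and transport, 3 and 9 in the other chaperones, 0 and 8 in the heat shock list, and 3 and 2 among the sensors. Of all genes tested, 19.8% were called higher and 19.7% lower between adult and P7 platelets with TMM scaling.

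The ER stress response element was also in the windows of genes outside the 10. Of the 37 genes with it, 33 were in the count tables and 15 were tested, 5 of them among the 10. Of the other 10 tested genes, 3 were higher and 1 lower with P7 platelets and 6 did not pass, with a median log2 fold change of 0.11. These counts were close to or below the shares over all genes, 29.9% higher and 29.3% lower. With adult platelets 1 was higher and 9 did not pass, beside 14.3% of all genes higher. Adult against P7 platelets gave 0 higher and 4 lower, beside 19.8% and 19.7% of all genes. Derl3, Gm6566 and Xlr3b, which passed in no comparison, averaged below 1 normalised CPM in each group. The 4 that changed with P7 platelets, named after their values were seen, were Creld2 (0.56 ± 0.078), Syvn1 (0.25 ± 0.064), Hnrnpa3 (0.34 ± 0.049) and Adcy3, which was lower (-1.15 ± 0.286) at a level of about 1 normalised CPM. Creld2 encodes an ER protein induced by stress, and Syvn1 the ubiquitin ligase HRD1 of ER-associated degradation. Xbp1, Pdia3, Pdia4 and Dnajb9 had no match to either ER stress element in their windows, and Pdia3 was called higher with P7 platelets all the same. The Dnajb9 window (chr12:44210019-44210318) lay wholly inside the gene as GENCODE M21 draws it (44205559-44210326, minus strand). No sequence upstream of that start was therefore read for Dnajb9.

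Over the 9 libraries, Hspa5 was most like Ube2q1, Cyfip1 and Psmd11 among 7291 genes, with Pearson's r of log2 CPM of 0.998, 0.997 and 0.996. Cyfip1, for example, averaged 387 normalised CPM with adult platelets, 746 with P7 platelets and 312 in control, the same order of groups as Hspa5. Xbp1 was most like Prtn3, Bad and Atp5c1 (r of 0.968, 0.966 and 0.946), and Prtn3 averaged 52.3 normalised CPM with adult platelets, 33.4 with P7 platelets and 48.3 in control. Between members, Xbp1 ran opposite to Dnajb9 (r = -0.898), Herpud1 (-0.746) and Hspa5 (-0.681). These correlations describe 9 libraries in 3 groups, which share group and library differences, and carry no test.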

How the data were processed

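Polyadenylated RNA of 9 monocyte libraries, 3 per group, was read as 75 nt single ends from TruSeq stranded libraries, per the labels' protocols. Each library's file, as deposited, holds whole-number read counts by gene symbol without normalisation. Tools listed in the submitters' processing notes, in no stated order or role, are Salmon 1.3.0, featureCounts, Subread 2.0.1, STAR 2.7.6a and fastp 0.20.1. No source used here gives the strand setting, the annotation or the genome build of the counting, so reads from overlapping genes could be split or shared.

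Counts were fitted with edgeR 4.0.16 in R 4.3.3 (TMM factors, filterByExpr by group with a minimum count of 10, glmQLFit and glmQLFTest, two-sided, 1 mean per group, 6 residual degrees of freedom, biological coefficient of variation 0.114), and p-values were adjusted by Benjamini-Hochberg over all 13707 genes. Positions and exonic lengths came from GENCODE M21 (GRCm38), promoter windows from RefSeq GRCm38.p6; all 10 genes matched both by symbol. The script was tested on simulated data. No pair of libraries in a group agreed within sampling noise (chi-square per degree of freedom 4.67 or more), and no library was left out. Libraries 2 and 3 were closest in control (4.67, beside 18.1 and 24.4 for the pairs with library 1). The same held with P7 platelets (5.58, beside 25.8 and 29.4). With adult platelets the pairs had 30.8 to 38.3, and libraries 2 and 3 differed most. Whether libraries 2 and 3 are less independent of each other was not tested.

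Replicate numbers come from the sample titles, which state no shared batch or animal. Deviations from the group means of same-numbered libraries correlated at 0.21 to 0.58 between P7 platelets and control, above 0.1 for each pair, and at -0.08 to 0.56 for adult platelets against either group. P7 library 2 correlated alike with control library 2 (0.209) and control library 3 (0.205). Whether the numbers mark pairs therefore cannot be told, and the main fit used no pairing.

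The 10 genes, the related lists and the marker lists were chosen with earlier results of these data known. Named genes were the 10, up to 3 higher and 3 lower genes per related list and comparison by smallest p, 6 sensor and stress genes, and the 3 genes most correlated with Hspa5 and with Xbp1 (mean log2 CPM of at least 4). Alternatives were DESeq2 1.42.0 size factors and Wald test, upper-quartile factors, library totals alone, no filter, a mean of at least 50 counts, limma 3.58.1 voom, a replicate block, the compared groups alone, removal of platelet, erythroid and mitochondrial transcripts, log2 Igkc as a term, and each library left out.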

Additional observations from a re-analysis of the deposited data

How the results depend on the processing

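Of the 30 fold changes of the 10 genes, each under 20 alternatives, 545 values kept their direction and their side of the threshold, 22 lost their call, 20 gained one and 13 changed sign. For adult platelets against control, where 2 of the 10 genes were called, the count was 0 with upper-quartile factors, 0 with library totals alone, 5 with the DESeq2 Wald test, 4 with log2 Igkc as a term, and 0 to 3 when single libraries were left out. Over all genes, upper-quartile factors gave 3565 calls, library totals 3569, the DESeq2 Wald test 3803 and the Igkc term 4334. All genes called in that comparison numbered 2031 to 3774 when single libraries were left out (2031 without control library 2, 2207 without control library 3), against 3617 with all libraries. With single libraries left out, P7 platelets against control gave 7 to 8 of the 10 genes (7101 to 8482 of all genes) and adult against P7 platelets 6 to 9 (3978 to 5540 of all genes). The cause of these shifts was not tested.

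The log2 differences after a change of sign were small, but not all failed to pass. With library totals alone, Atf4 passed as higher with adult than with P7 platelets (adjusted p = 0.0237). Under that scaling Atf6 also passed as lower with P7 platelets than in control (adjusted p = 0.0179). With upper-quartile factors, adult against P7 platelets gave 0.0202 for Atf4 and 0.0263 for Pdia4, P7 platelets against control gave -0.0136 for Atf6, and adult platelets against control gave -0.0208 for Dnajb9. With library totals alone, adult against P7 platelets gave 0.16 for Atf4, 0.0145 for Dnajb9, 0.0335 for Hsp90b1, 0.0481 for Pdia3 and 0.17 for Pdia4. Under the same scaling, P7 platelets against control gave -0.19 for Atf6, -0.0112 for Atf6b, -0.0688 for Dnajb9, -0.0231 for Hsp90b1 and -0.0036 for Pdia3, and adult platelets against control gave -0.0543 for Dnajb9 and -0.0217 for Xbp1. With single libraries left out, adult platelets against control gave -0.1623 to 0.0143 for Ddit3, above 0 without adult platelet library 2, and -0.0675 to 0.0545 for Dnajb9, below 0 without adult platelet library 2 or control library 1. With library totals the median log2 fold change of all genes was -0.07, -0.29 and 0.24 in the 3 comparisons (adult against control, P7 against control, adult against P7), and with TMM -0.0022, -0.01 and 0.02. Higher against lower calls over all genes with upper-quartile factors were 1620 and 1945, 3279 and 5012, and 3556 and 2106 in the same comparisons, and with library totals 1291 and 2278, 2193 and 6846, and 5963 and 1427.

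Over all groups, deviations of same-numbered libraries correlated between -0.08 and 0.58 and those of differently numbered libraries between -0.56 and 0.43. The number 1 libraries correlated at 0.49 to 0.58 with each other, whereas adult platelet library 3 correlated at -0.08 with both other number 3 libraries. Numbers 2 and 3 were not told apart between P7 platelets and control. P7 library 2 correlated at 0.209 with control library 2 and 0.205 with control library 3. P7 library 3 correlated at 0.335 with control library 3 and 0.307 with control library 2. These values do not show whether the numbers mark pairs. With the replicate block, 2 of the 10 genes were called for adult platelets against control, 8 for P7 platelets against control and 8 for adult against P7 platelets, where Dnajb9 was added (adjusted p = 0.0216 and 0.0374), and 4228, 8565 and 5965 of all genes. The block changed no other call of the 10 genes.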
